A study of Homo sapiens with 8 samples.

Results

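The genes described are 10 that encode subunits of the Polycomb repressive complexes, taken by name from a count table of 63140 human genes. They are EZH1, EZH2, EED, SUZ12 and JARID2 of Polycomb repressive complex 2 (PRC2), and RING1, RNF2, BMI1, CBX7 and CBX8 of Polycomb repressive complex 1 (PRC1). All 10 were found by their Ensembl identifier and symbol, and all 10 passed the filter on low counts, which kept 24057 genes. The rule lists them by name and uses no measured value, but the list was chosen with earlier results of these data known.

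PRC2 places methyl groups on a lysine in the tail of histone H3, and PRC1 places ubiquitin on histone H2A and compacts chromatin. Together they keep developmental regulators and cell cycle inhibitors silent, and the H3 mark written by PRC2 is bound by the chromobox (CBX) subunits of PRC1. In blood, EZH2 and BMI1 are known for their parts in stem cell renewal and in leukaemia, and PRC2 is one of the chromatin complexes studied as a partner of long non-coding RNAs.

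The measurement was RNA sequencing of chromatin isolation by RNA purification (ChIRP), in which fixed and sonicated lysate is hybridised with biotinylated probes and the RNA that comes down with them is read. The 8 libraries came from human acute myeloid leukaemia cells at day 3 after nucleofection, in 4 groups of 2. AAVS1 KO (genotype label WT) received Cas9 ribonucleoprotein with a guide to AAVS1, a control site, and HOTSCRAMBL KO (genotype label HOTSCRAMBL KO) received Cas9 ribonucleoprotein with a guide to the long non-coding RNA HOTSCRAMBL. AAVS1 CBE (genotype label WT) and HOTSCRAMBL CBE (genotype label HOTSCRAMBL CBE) received a cytosine base editor with guides to those targets. In every group 1 library is labelled MOLM13 and 1 is labelled OCI-AML4 (both names of established leukaemia lines). Between these labels 0.495% of the tested genes passed edgeR's test, and 2210 genes had an unadjusted p under 0.05 there. DESeq2, another test, called 2.97% of the same genes. No gene reached 10 CPM (scaled counts, defined below) in all libraries of one label with under 1 CPM in all of the other. Whether the libraries are of 2 lines was not tested, and the names are used here as labels only. The labels do not say which RNA the probes bind, whether cells were sorted or cloned after editing, or how complete the editing was, and they name no input library. A value is therefore an amount of RNA in a pull-down, and a gene's expression in the cell and its recovery by the probes cannot be told apart, nor can fewer cells of a type and less RNA per cell. Nothing in the labels says that libraries came from separate cultures, so p-values measure the spread between these libraries, which may be technical.

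Total counts ran from 20548300 to 37970163 per library. Levels are in CPM, the usual unit for a gene's share of its library's counts, scaled by the trimmed mean of M values (TMM), with factors from 1.04 to 1.06 in the AAVS1 libraries and from 0.929 to 0.964 in the HOTSCRAMBL libraries. The level of HOTSCRAMBL itself is not analysed here, because 0 genes of the table carry that name. Of 10 myeloid markers 9 stood at 1 CPM or more in every group, while T cell, erythroid and fibroblast markers summed to at most 2.34 CPM in any library. The summed myeloid markers stood at 1966 and 1833 CPM in AAVS1 KO, against 2269 and 2423 CPM in HOTSCRAMBL KO. With the base editor they stood at 1844 to 1870 CPM under the AAVS1 guide and 1757 to 1817 CPM under the HOTSCRAMBL guide. The gap with KO was carried by LYZ, which encodes lysozyme, at 120 and 141 CPM against 505 and 701 CPM. Without it the other 9 markers summed to 1846 and 1692 CPM against 1763 and 1721 CPM. Among them CEBPA (140 and 128 against 274 and 263 CPM) and CSF1R (71.6 and 61.3 against 89.6 and 125.5 CPM) were higher in HOTSCRAMBL KO. CD33, SPI1, MPO, FLT3 and CSF3R were lower there. Single markers also moved with the base editor, in both directions within the similar sums. CEBPA (133 and 130 against 186 and 216 CPM), PTPRC, FLT3 and LYZ were higher in HOTSCRAMBL CBE than in AAVS1 CBE. CSF3R (700 and 731 against 549 and 553 CPM), CD33, MPO and CSF1R were lower, and SPI1 overlapped. The part of these markers in the results was not tested.

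The 250 bases before the start of 4 members are printed because these genes carry the contrasts described below: EZH2 and JARID2 were lower in HOTSCRAMBL KO, SUZ12 was higher in HOTSCRAMBL CBE, and BMI1 differed between the labelled lines. Sequences are from RefSeq on GRCh38.p14, each read 5′ to 3′ on the strand of its gene. Capitals mark CCAAT, the CCAAT box, on either strand (CCAAT or its complement ATTGG). EZH2 lies on the minus strand at chr7:148884292-148884541, JARID2 on the plus strand at chr6:15245819-15246068, SUZ12 on the plus strand at chr17:31936757-31937006 and BMI1 on the plus strand at chr10:22320849-22321098.
EZH2: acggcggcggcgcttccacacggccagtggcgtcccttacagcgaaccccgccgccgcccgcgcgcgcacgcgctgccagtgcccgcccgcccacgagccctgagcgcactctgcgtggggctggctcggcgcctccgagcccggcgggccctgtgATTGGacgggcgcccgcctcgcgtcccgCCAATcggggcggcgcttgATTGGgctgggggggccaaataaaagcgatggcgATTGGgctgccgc
JARID2: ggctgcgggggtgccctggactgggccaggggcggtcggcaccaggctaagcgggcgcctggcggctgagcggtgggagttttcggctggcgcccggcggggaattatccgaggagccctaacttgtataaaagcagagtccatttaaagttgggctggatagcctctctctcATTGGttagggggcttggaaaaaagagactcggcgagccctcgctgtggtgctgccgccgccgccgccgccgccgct
SUZ12: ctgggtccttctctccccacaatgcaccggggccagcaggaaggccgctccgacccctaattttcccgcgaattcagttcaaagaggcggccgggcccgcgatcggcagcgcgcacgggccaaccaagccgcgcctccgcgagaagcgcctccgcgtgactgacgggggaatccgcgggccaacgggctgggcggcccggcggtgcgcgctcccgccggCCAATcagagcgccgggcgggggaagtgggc
BMI1: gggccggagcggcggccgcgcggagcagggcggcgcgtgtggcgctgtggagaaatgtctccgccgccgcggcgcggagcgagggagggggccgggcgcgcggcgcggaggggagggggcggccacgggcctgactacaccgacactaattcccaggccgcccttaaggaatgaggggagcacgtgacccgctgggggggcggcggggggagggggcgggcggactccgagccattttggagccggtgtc

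The EZH2 window holds 4 CCAAT matches and the JARID2 and SUZ12 windows 1 each, while the BMI1 window holds 0. EED and CBX7 have 1 match each, and EZH1, RING1 and RNF2 have 0. CBX8 has no sequence here. Of all 35116 windows of this length, 32.0% hold the box. The BMI1 window holds 6 matches of GGGCGG, the GC box, which 42.6% of all windows carry, and 1 match of GCCATNTT, a YY1-type motif carried by 3.86%. TTTNNCGC, an E2F-type motif found in 5.92% of windows, occurs once in EZH1 and once in SUZ12. CCGGAAGT, an ETS-type motif found in 3.42% of windows, occurs in 0 of the 9 members with a sequence. All motifs were searched on both strands, and 0 matches of different motifs overlapped within a window. A match is a run of letters and not a binding site.

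Compared per kilobase of annotated exon, the members differed widely in level. JARID2, which brings PRC2 to chromatin, was first with a mean of 62.0 CPM per kb over the 8 libraries, from 48.7 to 75.3. RING1 followed at 27.03, BMI1 at 16.1, EZH1 at 13.3, SUZ12 at 9.16, CBX8 at 8.32 and EZH2 at 8.01 CPM per kb. CBX7 at 2.28, EED at 2.06 and RNF2 at 1.85 CPM per kb came last. Only 2 neighbours in this order had ranges that did not overlap, namely JARID2 above RING1 and EZH2 above CBX7.

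**Figure D1:**
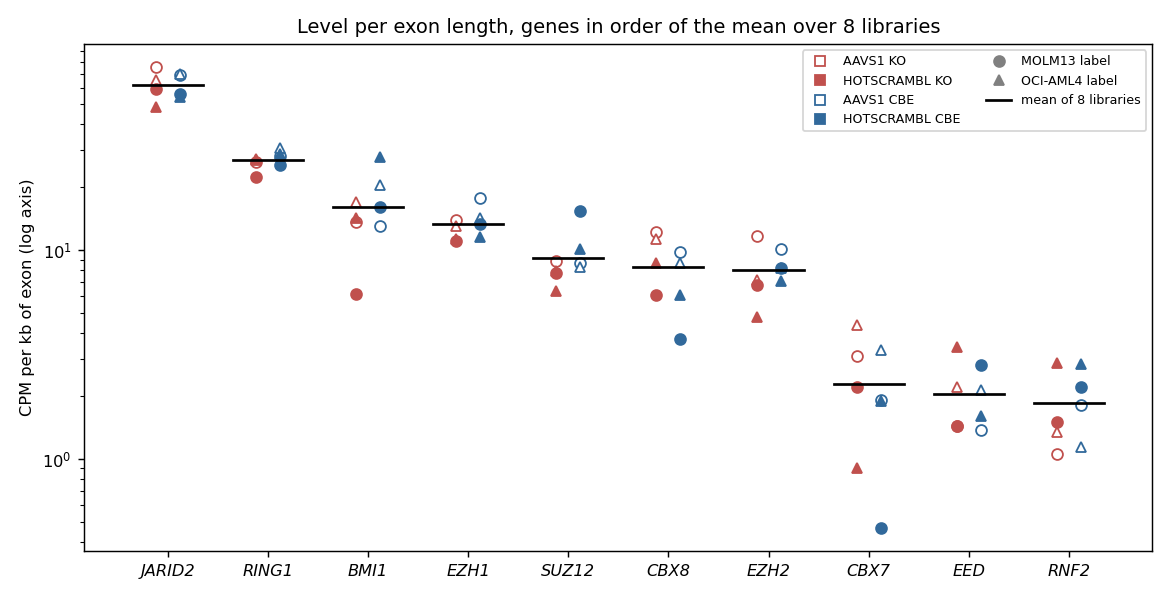
Level per exon length (CPM per kb, log axis) of the 10 genes in each of 8 libraries, in order of the mean (bar); colour gives the editor, filled symbols are HOTSCRAMBL libraries, circles are labelled MOLM13 and triangles OCI-AML4. JARID2 lies above all others at a mean of 62.0 CPM per kb, and CBX7, EED and RNF2 form the lowest group at 1.85 to 2.28.

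In the 4 AAVS1 libraries alone the order was the same for the first 4 genes, and CBX8, EZH2 and SUZ12 followed at 10.5, 9.29 and 8.43 CPM per kb. Within pairs of paralogs, EZH1 was above EZH2 per length in all 8 libraries, with an EZH2 to EZH1 ratio between 0.421 and 0.842. The length counts all annotated exon bases, 10774 for EZH2 and 6988 for EZH1. Which transcripts were present was not determined, so these per-length ratios depend on the annotation. RING1 was above RNF2, its paralog with the same ubiquitin ligase role, by 9.49 to 27.1 times. JARID2 alone supplied 42.2% to 52.9% of the counts of the 10 genes. Summed before TMM scaling, the 10 genes made up 984 and 904 CPM in the AAVS1 KO libraries, against 663 and 619 CPM in those of HOTSCRAMBL KO. The sums were 940 and 958 CPM for AAVS1 CBE, against 758 and 769 CPM for HOTSCRAMBL CBE. After TMM scaling the 10 genes summed to 947 and 850 CPM in AAVS1 KO against 694 and 666 in HOTSCRAMBL KO. For CBE these scaled sums were 898 and 903 CPM in AAVS1 CBE against 797 and 798 in HOTSCRAMBL CBE. Scaled and without JARID2, the other 9 genes summed to 476 and 444 CPM in AAVS1 KO against 327 and 362 in HOTSCRAMBL KO. In AAVS1 CBE those 9 genes summed to 469 and 468 CPM, against 446 and 461 in HOTSCRAMBL CBE.

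With Cas9, the HOTSCRAMBL guide was set against the AAVS1 guide. EZH2 and JARID2 fell, and none of the 10 rose past the threshold, an adjusted p of 0.05 from edgeR's quasi-likelihood test with Benjamini-Hochberg adjustment over all tested genes. These 2 of 10 calls stand beside 8.76% of all genes called in this contrast, 4.25% lower and 4.51% higher. The median log2 fold change of the members was −0.32, against −0.01 over all genes. At an unadjusted p under 0.05 there were 5 members and 4834 genes.

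With the cytosine base editor, the same guides were compared. JARID2 and CBX8 fell and SUZ12 rose, 3 of 10 members, where 8.83% of all genes were called, 4.27% lower and 4.56% higher. The median of the members was −0.19, against −0.02 over all genes, and 6 members and 4845 genes had an unadjusted p under 0.05. JARID2 was the only member called with both editors. The 2 contrasts use different control libraries within 1 fit that shares its estimate of spread.

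**Figure D2:**
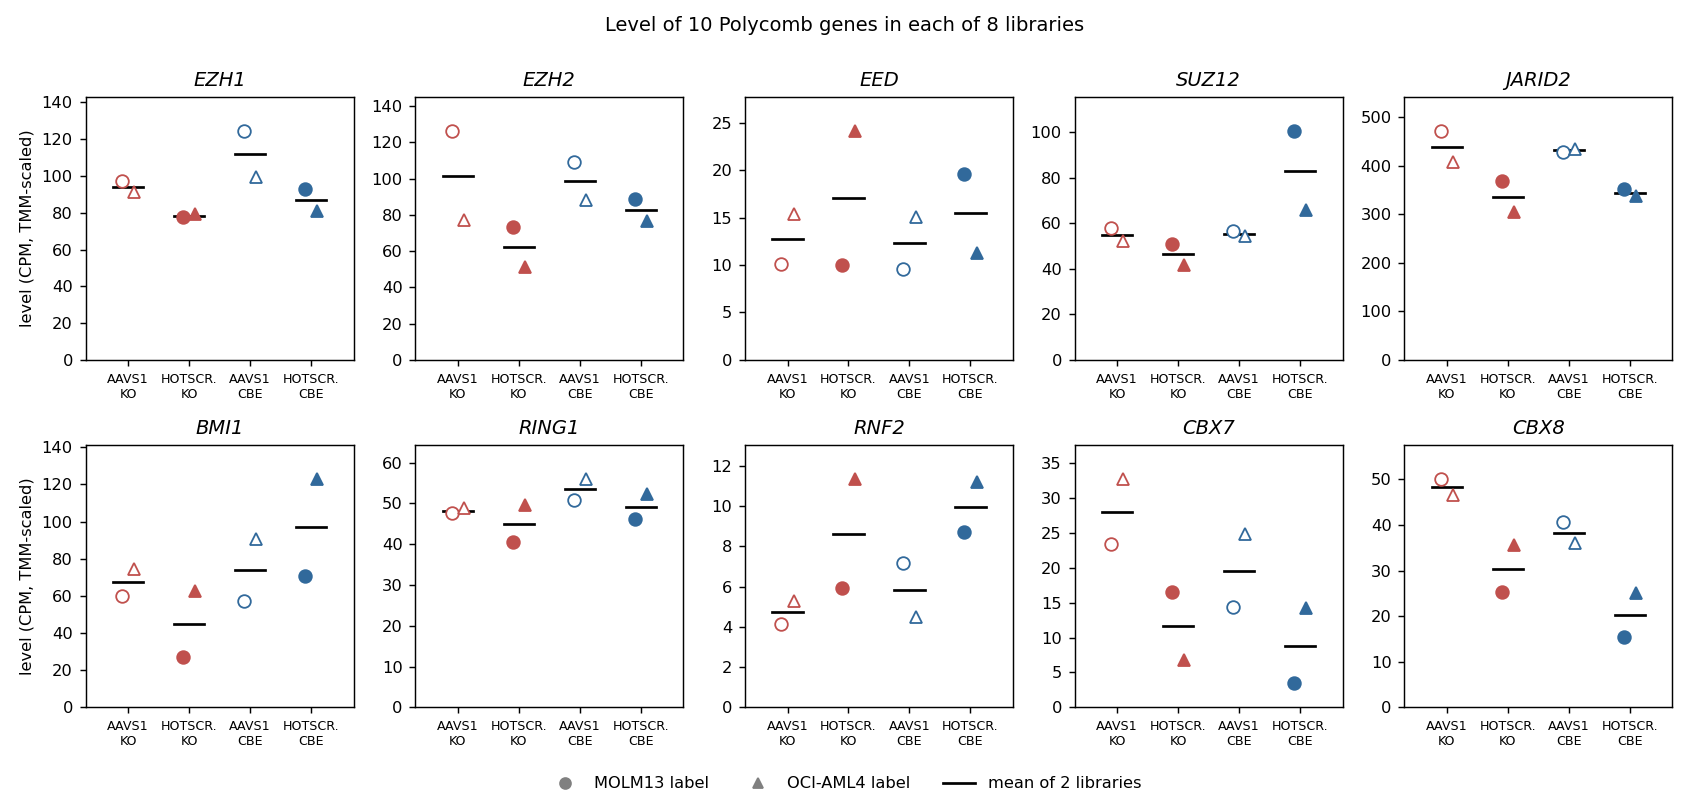
Level of each gene (CPM after TMM scaling, axes from 0) in each of 8 libraries by group; circles are labelled MOLM13, triangles OCI-AML4, and bars are means of 2 libraries. JARID2 and CBX8 sit lower in both HOTSCRAMBL groups than in their AAVS1 controls, EZH2 is lowest in HOTSCRAMBL KO, and SUZ12 is highest in HOTSCRAMBL CBE.

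EZH2 (ENSG00000106462, chromosome 7, 148807257 to 148884321, GRCh38) encodes the main methyltransferase of PRC2 in dividing cells. With Cas9, it stood at 126.0 and 77.3 CPM in the MOLM13-labelled and OCI-AML4-labelled libraries of AAVS1 KO, and at 73.2 and 51.3 CPM in those of HOTSCRAMBL KO. Both HOTSCRAMBL libraries lay below both controls, although the higher of them came within a few CPM of the lower control. Of all genes, 23.8% had both HOTSCRAMBL KO libraries below both controls. The log2 fold change was −0.70 (SE 0.183, edgeR adjusted p 0.0135). With the base editor, EZH2 stood at 109 and 88.1 CPM in AAVS1 CBE, against 88.7 and 76.7 CPM in HOTSCRAMBL CBE, and the groups overlapped. The log2 fold change was −0.26 (SE 0.163, edgeR adjusted p 0.409), with an interval at 95% from −0.59 to 0.08.

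The EZH2 call rested on the KO libraries. Leaving out the MOLM13-labelled library of AAVS1 KO gave −0.49 (edgeR adjusted p 0.401), leaving out the MOLM13-labelled library of HOTSCRAMBL KO gave −0.76 (0.121), and leaving out its OCI-AML4-labelled partner gave −0.65 (0.138). Without the line as a block the edgeR adjusted p was 0.0513.

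EZH1 (ENSG00000108799, chromosome 17, 42700275 to 42745049) encodes the other PRC2 methyltransferase, which is known from cells that divide little. Its levels were 97.1 and 91.5 CPM in AAVS1 KO against 77.6 and 79.1 CPM in HOTSCRAMBL KO. With the base editor they were 124 and 99.3 CPM under the AAVS1 guide, against 92.8 and 81.2 CPM under the HOTSCRAMBL guide. The HOTSCRAMBL libraries were below their controls without overlap under both editors, which held in this direction for 23.8% of all genes with KO and 23.7% with CBE. Neither difference passed the threshold, at −0.26 with KO (SE 0.171, edgeR adjusted p 0.432) and −0.36 with CBE (SE 0.153, edgeR adjusted p 0.167).

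JARID2 (ENSG00000008083, chromosome 6, 15246069 to 15522042) encodes an accessory subunit that guides PRC2 to its sites. With Cas9 it stood at 470 and 406 CPM in AAVS1 KO, against 367 and 304 CPM in HOTSCRAMBL KO. With the base editor it stood at 428 and 434 CPM in AAVS1 CBE, against 351 and 337 CPM in HOTSCRAMBL CBE. All 4 HOTSCRAMBL libraries were below all 4 control libraries, an order whose share over all genes was not computed. Below the controls of the same editor without overlap were 23.8% of all genes with KO and 23.7% with CBE.

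The log2 fold change of JARID2 was −0.39 with KO (SE 0.107, edgeR adjusted p 0.0215) and −0.33 with CBE (SE 0.104, edgeR adjusted p 0.0468). The difference between these was −0.06, with an interval at 95% from −0.36 to 0.25. With KO, the call was lost when any of the 4 KO libraries was left out, with edgeR adjusted p of 0.341 and 0.127 for the MOLM13-labelled and OCI-AML4-labelled libraries of AAVS1 KO, and 0.0617 and 0.253 for those of HOTSCRAMBL KO. With CBE it was lost on leaving out any of the 8 libraries, with log2 fold changes from −0.42 to −0.23 and edgeR adjusted p from 0.0562 to 0.456. Without the line as a block the edgeR adjusted p was 0.0925 with KO and 0.166 with CBE.

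SUZ12 (ENSG00000178691, chromosome 17, 31937007 to 32001038) encodes a core subunit that PRC2 needs to be stable. It stood at 57.8 and 52.2 CPM in AAVS1 KO, against 50.9 and 41.8 CPM in HOTSCRAMBL KO, which edgeR put at −0.25 on the log2 scale (SE 0.221, adjusted p 0.592). In AAVS1 CBE it stood at 56.6 and 54.3 CPM, and in HOTSCRAMBL CBE at 100.4 and 65.9 CPM. The groups did not overlap with either editor. The HOTSCRAMBL libraries were below their controls with KO, as for 23.8% of all genes, but above them with CBE, as for 22.8%. The MOLM13-labelled library of HOTSCRAMBL CBE stood far above the other 7.

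With CBE the log2 fold change of SUZ12 was 0.59 (SE 0.184, edgeR adjusted p 0.0415). Leaving out any of the 8 libraries ended the call, with edgeR adjusted p from 0.0501 to 0.646. Without the MOLM13-labelled library of HOTSCRAMBL CBE the value was 0.33 (0.646), without the MOLM13-labelled library of AAVS1 CBE it was 0.43 (0.496), and without TMM scaling it was 0.45 (0.136). Without the line as a block the edgeR adjusted p was 0.0856. The difference between editors was −0.84 (SE 0.287, edgeR adjusted p 0.131), which did not pass. Of the 50-base stretches of SUZ12 exons, 7.70% also occur in other genes, mostly in the copy SUZ12P1, which stood between 0.560 and 3.66 CPM over the 8 libraries.

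EED (ENSG00000074266, chromosome 11, 86201212 to 86278813) encodes the subunit that reads the methyl mark and stimulates the enzyme. It stood at 10.1 and 15.4 CPM in AAVS1 KO, against 10.0 and 24.1 CPM in HOTSCRAMBL KO. It stood at 9.62 and 15.0 CPM in AAVS1 CBE, against 19.6 and 11.3 CPM in HOTSCRAMBL CBE. The groups overlapped under both editors, and the library that stood high in each HOTSCRAMBL group carried a different line label. The log2 fold changes were 0.44 with KO (SE 0.439, edgeR adjusted p 0.639) and 0.43 with CBE (SE 0.398, edgeR adjusted p 0.611), with intervals at 95% from −0.46 to 1.35 and from −0.39 to 1.25. Each sign turned when the higher HOTSCRAMBL library was left out, to −0.30 with KO and −0.50 with CBE.

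**Figure D3:**
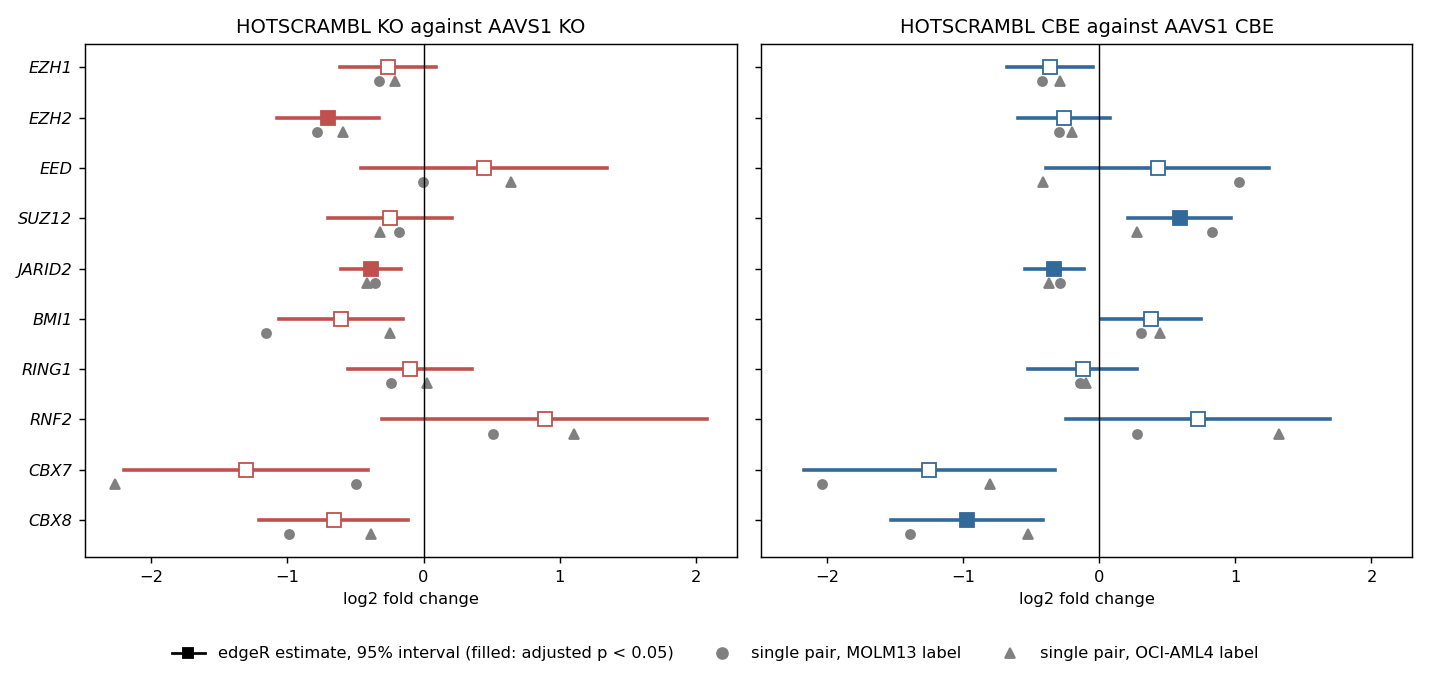
Log2 fold change of HOTSCRAMBL against AAVS1 for each gene, with KO on the left and CBE on the right; squares are edgeR estimates with intervals at 95%, filled where the adjusted p is under 0.05, and grey marks are the single pairs of libraries with the same line label. EZH2 and JARID2 are filled with KO, SUZ12, JARID2 and CBX8 with CBE, and the widest intervals belong to RNF2, CBX7 and EED.

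Among PRC1 genes, RING1 and RNF2 encode the ubiquitin ligases. RING1 (ENSG00000204227, chromosome 6, 33208500 to 33212722) had the narrowest relative range of the 10 genes, with 47.7 and 48.8 CPM in AAVS1 KO against 40.5 and 49.6 CPM in HOTSCRAMBL KO. With the base editor it stood at 50.9 and 56.0 CPM under the AAVS1 guide, against 46.1 and 52.4 CPM under the HOTSCRAMBL guide. Its groups overlapped, and its log2 fold changes were −0.10 with KO (SE 0.222, edgeR adjusted p 0.854) and −0.12 with CBE (SE 0.195, edgeR adjusted p 0.792). The intervals at 95% ran from −0.56 to 0.36 and from −0.52 to 0.28, so changes within those ranges remain compatible with the data.

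RNF2 (ENSG00000121481, chromosome 1, 185045497 to 185102603), the lowest member per length, was the only one higher in all 4 pairs of libraries. It stood at 4.15 and 5.28 CPM in AAVS1 KO, against 5.91 and 11.3 CPM in HOTSCRAMBL KO. It stood at 7.16 and 4.48 CPM in AAVS1 CBE, against 8.70 and 11.2 CPM in HOTSCRAMBL CBE. The HOTSCRAMBL libraries lay above their controls without overlap under both editors, which held in this direction for 21% of all genes with KO and 22.8% with CBE. The differences did not pass, at 0.89 with KO (SE 0.579, edgeR adjusted p 0.429) and 0.73 with CBE (SE 0.469, edgeR adjusted p 0.422). Leaving out 1 library moved them between 0.35 and 1.24 with KO and between 0.20 and 1.41 with CBE.

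BMI1 (ENSG00000168283, chromosome 10, 22321099 to 22331484) encodes the ring finger partner that activates these ligases and represses the CDKN2A locus. It stood at 60.2 and 74.3 CPM in AAVS1 KO, against 26.95 and 62.7 CPM in HOTSCRAMBL KO. It stood at 57.1 and 90.4 CPM in AAVS1 CBE, against 70.7 and 123 CPM in HOTSCRAMBL CBE. In every group the OCI-AML4-labelled library was the higher, and the groups overlapped under both editors.

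The log2 fold change of BMI1 was −0.61 with KO (SE 0.220, edgeR adjusted p 0.0943) and 0.38 with CBE (SE 0.177, edgeR adjusted p 0.222), of opposite sign. With KO, DESeq2 on the same genes (adjusted p 0.00850), DESeq2 with its own filter (0.0284), the fit without TMM (0.0190) and the quasi-likelihood fit of earlier edgeR versions (0.00630) called BMI1. Leaving out 1 library moved that value between −0.99 and −0.38, with 0 calls. The difference between editors was −0.99 (SE 0.282, edgeR adjusted p 0.0537), with an interval at 95% from −1.57 to −0.41. It missed the threshold, which 3.19% of all genes passed and none of the 10 members did. At an unadjusted p under 0.05 there were 2 members, BMI1 and SUZ12, and 3399 genes. DESeq2 on the same genes called both, and DESeq2 with its own filter, limma-voom, the fit without TMM and the fit without a filter each called BMI1, with adjusted p from 0.00615 to 0.0430.

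Between the labelled lines, BMI1 was the 1 member of 10 that passed, where 0.495% of all genes did. It was lower under the MOLM13 label by a log2 of −0.70 (SE 0.138, edgeR adjusted p 0.0107). Leaving out any of the 8 libraries ended that call, with edgeR adjusted p from 0.0672 to 0.254 and values from −0.83 to −0.61. EZH2 had the opposite sign, at 0.42 (SE 0.122, edgeR adjusted p 0.161), and did not pass. DESeq2 on the same genes called EZH2 as well (0.43, DESeq2 adjusted p 0.00824), in a fit that called 2.97% of all genes. No member was called for a HOTSCRAMBL effect that differs between the lines, nor was any of the 24057 genes (0%), and 0 members and 985 genes had an unadjusted p under 0.05 there. DESeq2 on the same genes called 68. Of the exon bases of BMI1, 22.8% are shared with the readthrough gene COMMD3-BMI1 on the same strand, which has 0 counts in every library, and reads over both genes were not counted.

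CBX7 and CBX8 encode chromobox subunits that bind the methylated H3 tail. CBX8 (ENSG00000141570, chromosome 17, 79792132 to 79801683) stood at 50.1 and 46.5 CPM in AAVS1 KO, against 25.3 and 35.6 CPM in HOTSCRAMBL KO. It stood at 40.6 and 36.0 CPM in AAVS1 CBE, against 15.5 and 25.1 CPM in HOTSCRAMBL CBE. All 4 HOTSCRAMBL libraries were below all 4 controls, the closest at 35.6 against 36.0 CPM, and the share of all genes in this order was not computed. Below the controls of the same editor without overlap were 23.8% of all genes with KO and 23.7% with CBE. The fall with CBE passed at −0.97 (SE 0.271, edgeR adjusted p 0.0218) and the value with KO, −0.66 (SE 0.267, edgeR adjusted p 0.145), did not. The difference between the editors was 0.31, with an interval at 95% from −0.48 to 1.10.

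The CBX8 call with CBE remained in 3 of the 8 fits that left out a library. It was lost without the MOLM13-labelled library of HOTSCRAMBL CBE, at −0.62 (edgeR adjusted p 0.495), and without the MOLM13-labelled or OCI-AML4-labelled library of AAVS1 CBE, at −0.72 (0.377) and −1.18 (0.0649). It was also lost, narrowly, without either AAVS1 KO library (edgeR adjusted p 0.0507 and 0.0514).

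CBX7 (ENSG00000100307, chromosome 22, 39120167 to 39152680) stood at 23.3 and 32.7 CPM in AAVS1 KO, against 16.5 and 6.79 CPM in HOTSCRAMBL KO. It stood at 14.3 and 24.7 CPM in AAVS1 CBE, against 3.49 and 14.2 CPM in HOTSCRAMBL CBE. The HOTSCRAMBL libraries lay below their controls without overlap under both editors, as did 23.8% of all genes with KO and 23.7% with CBE. The lowest library carried the OCI-AML4 label with KO and the MOLM13 label with CBE. Its log2 fold changes were the largest of the 10 genes in size, at −1.31 with KO (SE 0.435) and −1.25 with CBE (SE 0.446), and missed the threshold with edgeR adjusted p of 0.0622 and 0.0871. With KO, leaving out the MOLM13-labelled library of HOTSCRAMBL KO gave −2.42 (edgeR adjusted p 0.0251), and leaving out its OCI-AML4-labelled partner gave −0.28 (0.804). With CBE, leaving out 1 library moved the value between −2.30 and −0.58, with 0 calls. limma-voom called both, at −1.59 and −1.43 (adjusted p 0.00546 and 0.0276), as did the fit without TMM and the quasi-likelihood fit of earlier edgeR versions. The fit without a filter called KO alone (0.0355), and DESeq2 on the same genes called neither, at −1.09 and −1.25 (adjusted p 0.452 and 0.416). An antisense gene without a symbol (ENSG00000279833) covers 17.9% of the CBX7 exon bases, and strand was not used in counting, so reads of that stretch cannot be assigned to either gene.

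Across the 4 pairs of libraries that share an editor and a line label, 5 of 10 members were lower in all 4, namely EZH1, EZH2, JARID2, CBX7 and CBX8, and 4 were mixed. Of all tested genes, 12.8% were lower and 11% higher in all 4 pairs. With KO, 6 members lay wholly below their controls, where 23.8% of all genes did, and with CBE 4 did, where 23.7% of all genes did. Leaving out TMM moved the median over all genes to −0.17 with KO and −0.15 with CBE, and the share of calls that were higher fell to 33.1% from 51.5% with KO and to 32.6% from 51.6% with CBE. Unscaled, 5 members were called lower with KO (EZH2, JARID2, BMI1, CBX7 and CBX8) and 4 with CBE (EZH1, JARID2, CBX7 and CBX8), where 7.05% and 6.72% of all genes were called lower, so directions here are relative to TMM scaling.

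The 2 control groups were compared as a background. No member passed between AAVS1 KO and AAVS1 CBE, nor did any gene (0%), and 0 members and 918 genes had an unadjusted p under 0.05. DESeq2 on the same genes called 35. The members' log2 values between controls ran from −0.34 for RNF2 to 0.53 for CBX7.

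Other subunits of the complexes and the enzymes that remove their marks were taken from fixed lists. Among 9 other PRC2 subunits 8 were tested, and EZHIP, an inhibitor of EZH2, had 0 counts. PHF1, a Polycomb-like protein that helps PRC2 bind chromatin, fell with both editors. It went from 79.1 and 90.8 CPM in AAVS1 KO to 44.3 and 45.9 CPM in HOTSCRAMBL KO (−0.91 on the log2 scale, SE 0.202, edgeR adjusted p 0.00327), and from 78.1 and 80.8 CPM in AAVS1 CBE to 43.9 and 61.4 CPM in HOTSCRAMBL CBE (−0.62, SE 0.181, edgeR adjusted p 0.0296). Groups did not overlap, which held in this direction for 23.8% of all genes with KO and 23.7% with CBE. AEBP2, a cofactor of a separate PRC2 form, fell with CBE (−0.67, SE 0.163, edgeR adjusted p 0.00726) and was lower under the MOLM13 label (−0.99, SE 0.118, edgeR adjusted p 1.84e-05). The list medians were −0.04 with KO and −0.05 with CBE. Calls made up 12.5% of the tested list with KO and 25% with CBE, against 8.76% and 8.83% of all genes.

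These PRC2 calls depended on single libraries. That of PHF1 with KO was lost without the MOLM13-labelled or OCI-AML4-labelled library of AAVS1 KO (edgeR adjusted p 0.0747 and 0.0790) or without the OCI-AML4-labelled library of HOTSCRAMBL KO (0.102). With CBE it was lost without any of the AAVS1 or CBE libraries, up to an edgeR adjusted p of 0.473 and a value of −0.42 without the MOLM13-labelled library of HOTSCRAMBL CBE, and it was 0.0688 without the line as a block. That of AEBP2 with CBE was lost without the OCI-AML4-labelled library of AAVS1 CBE (0.223) or either library of HOTSCRAMBL CBE (0.0897 and 0.155), and was 0.635 without the line as a block. The AEBP2 difference between labelled lines was called in all 8 fits that left out a library.

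Of the 22 other PRC1 subunits, all tested, SCMH1 (−0.75, SE 0.196, edgeR adjusted p 0.0137) and PCGF3 (−0.70, SE 0.203, edgeR adjusted p 0.0296) fell with KO. KDM2B, which brings a PRC1 form to CpG islands, fell with CBE (−0.57, SE 0.114, edgeR adjusted p 0.0013), from 266 and 252 CPM to 173 and 177 CPM. The medians were −0.19 with KO and −0.01 with CBE. In this list 9.09% of tested genes were called with KO and 4.55% with CBE, against 8.76% and 8.83% of all genes. Exons of PHF1, SCMH1, PCGF3 and KDM2B overlap those of neighbours or antisense genes, so part of their reads was not counted or cannot be assigned. The calls of SCMH1 and PCGF3 were lost without any 1 of the 4 KO libraries (edgeR adjusted p 0.0869 to 0.175 and 0.174 to 0.290), and that of PCGF3 also, at 0.0511 and 0.0519, without either HOTSCRAMBL CBE library. That of KDM2B was lost without the MOLM13-labelled library of AAVS1 CBE (0.0871) or of HOTSCRAMBL CBE (0.0706).

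**Figure D4:**
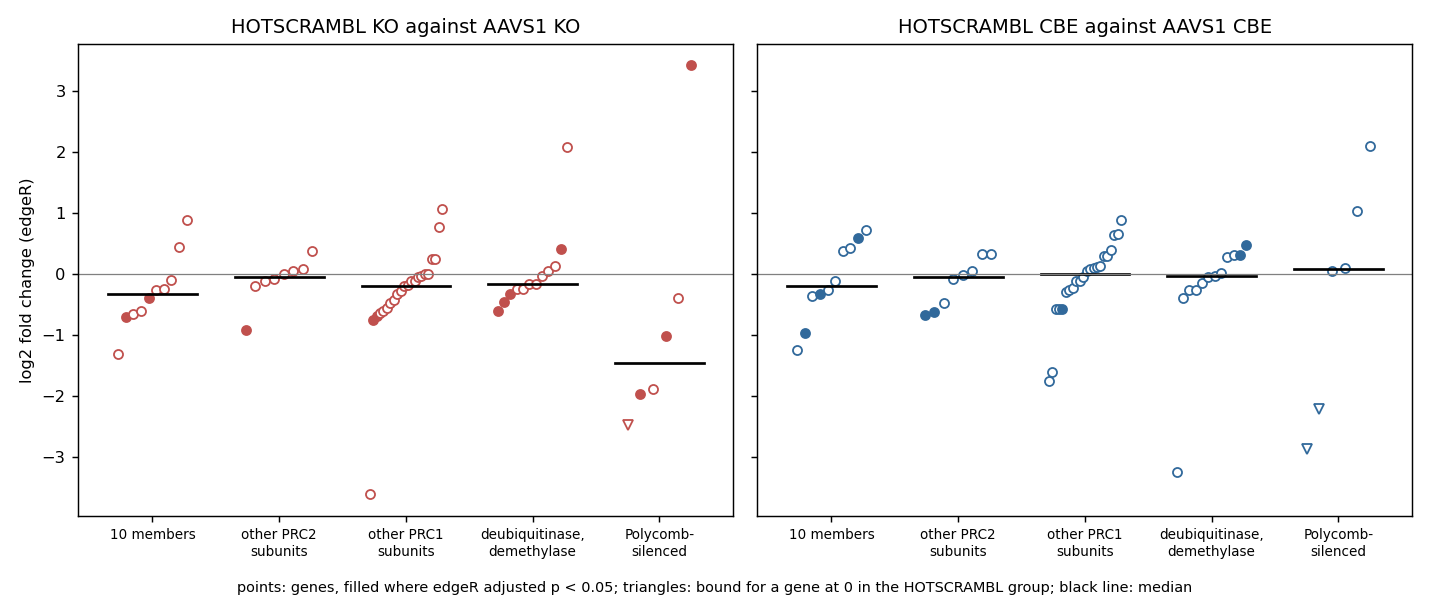
Log2 fold change of each tested gene of 5 lists, with KO on the left and CBE on the right; filled points have an edgeR adjusted p under 0.05, triangles are bounds for genes at 0 in the HOTSCRAMBL group, and bars are medians. Most subunits lie within 1 log2 of 0. In the KO panel WT1 and IGF2BP3 (down) and CDKN1C (up) are filled among the Polycomb-silenced genes, and every other list also has filled points.

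Enzymes that remove the Polycomb marks were listed with their partners. BAP1, the H2A deubiquitinase, and the H3 demethylases KDM6A and KDM6B did not pass with either editor, with edgeR adjusted p from 0.189 to 0.981. Among the 12 genes of this list, MBD6 (−0.61, SE 0.145, edgeR adjusted p 0.00644), ASXL1 (−0.47, SE 0.120, edgeR adjusted p 0.0118) and OGT (−0.33, SE 0.0910, edgeR adjusted p 0.0219) fell with KO and FOXK1 rose (0.41, SE 0.129, edgeR adjusted p 0.0463). OGT adds sugar residues to proteins, and ASXL1 and MBD6 are partners of BAP1. Exons of MBD6 overlap those of DCTN2 and DDIT3, so part of its reads was not counted or cannot be assigned. With CBE, HCFC1 (0.48, SE 0.0987, edgeR adjusted p 0.00145) and OGT (0.32, SE 0.0885, edgeR adjusted p 0.0223) rose. OGT went from 865 and 887 CPM in AAVS1 KO to 752 and 651 CPM in HOTSCRAMBL KO, but from 957 and 804 CPM in AAVS1 CBE to 1165 and 1024 CPM in HOTSCRAMBL CBE. The medians of the list were −0.16 and −0.04. Its share of called genes was 33.3% with KO and 16.7% with CBE, against 8.76% and 8.83% of all genes.

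The change of OGT differed between editors by −0.64 (SE 0.127, edgeR adjusted p 0.0031) and that of HCFC1 by −0.52 (SE 0.142, edgeR adjusted p 0.0394). Without TMM the value of OGT with CBE was 0.18 (edgeR adjusted p 0.275) and that of FOXK1 with KO 0.25 (0.274). Without the line as a block OGT stood at an edgeR adjusted p of 0.132 with KO and 0.135 with CBE, and FOXK1 at 0.107. Leaving out a single library ended 7 of 8 times the call of FOXK1 (up to 0.473, without the MOLM13-labelled library of AAVS1 KO), 5 of 8 times that of OGT with KO (up to 0.469, without the OCI-AML4-labelled library of AAVS1 KO) and 4 of 8 times that of OGT with CBE (up to 0.326, without the OCI-AML4-labelled library of AAVS1 CBE). It ended 4 of 8 times the call of ASXL1 (up to 0.220) and 3 of 8 times that of MBD6 (up to 0.171), always a KO library, and that of HCFC1 with CBE once, without the OCI-AML4-labelled library of AAVS1 CBE (0.0962).

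Genes that Polycomb is known to silence were mostly near 0. Of 24 listed, 18 did not pass the filter, with at most 36 counts in a library, and 6 were tested. With KO, WT1, a zinc finger regulator expressed in many leukaemias, fell from 52.7 and 58.8 to 11.4 and 16.9 CPM (−1.96 on the log2 scale, SE 0.283, edgeR adjusted p 1.85e-05). IGF2BP3, an RNA-binding protein, fell from 68.8 and 50.8 to 30.3 and 28.4 CPM (−1.02, SE 0.232, edgeR adjusted p 0.00417). CDKN1C, the cell cycle inhibitor p57, rose from 2.74 and 0.160 to 14.8 and 16.4 CPM (3.42, SE 0.652, edgeR adjusted p 6.42e-04).

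With CBE, 0 of these 6 genes passed. The share of the 6 called was 50% with KO and 0% with CBE, against 8.76% and 8.83% of all genes. WT1 stood at 63.7 and 57.7 CPM in AAVS1 CBE, against 66.6 and 63.5 CPM in HOTSCRAMBL CBE, and CDKN1C stayed at or below 0.472 CPM. The medians of the list were −1.46 and 0.08, and both were the same with LHX1 and PAX6, which had 0 counts in a HOTSCRAMBL group, set at their bounds. WT1 was called in each of the 8 fits that left out a library. Leaving out the MOLM13-labelled library of AAVS1 KO moved CDKN1C to 6.66 (edgeR adjusted p 0.00728). Its call was lost without the OCI-AML4-labelled library of AAVS1 KO (2.42, edgeR adjusted p 0.0948) or of HOTSCRAMBL KO (2.67, 0.107), and that of IGF2BP3 without the MOLM13-labelled library of either (−0.86, 0.157, and −0.95, 0.0910). An antisense gene, WT1-AS, overlaps WT1 and cannot be separated. Exons of IGF2BP3 overlap those of MALSU1, with the same limit.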

How the data were processed

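RNA counts per gene were deposited by the authors as raw whole numbers. They came, per the file headers, from featureCounts 2.0.6 with the Ensembl 112 annotation of GRCh38, counting both reads of a pair separately, without strand, and leaving out reads that map to several places or genes. The aligner is not given in the sources used here. Broken records of 2 genes were rejoined, and 0 columns of other samples were present.

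Genes were tested with edgeR 4.0.16 (R 4.3.3): a robust quasi-likelihood fit after filterByExpr (minimum count 10) and TMM scaling. The model held the 4 groups and the labelled line, leaving 3 residual degrees of freedom. Each SE is the size of the fold change on its log scale divided by the square root of edgeR's F statistic. It is thus derived from the test and is not a separate estimate of the model. The intervals use this SE with the total degrees of freedom of the test. That total adds to the residual ones a prior part estimated across genes. Calls had a Benjamini-Hochberg adjusted p under 0.05. The replicate block is the line label of the titles, which goes with the replicate number. Deviations of libraries with the same line label correlated with r from 0.00577 to 0.0187 over 24057 genes. Over the 12028 above the median level r ran from 0.0426 to 0.116. Libraries of a group differed by a chi-square per degree of freedom of 36.7 to 44.2, and none was treated as a repeat. The script was tested on simulated data. Alternatives used DESeq2 1.42.0 and limma 3.58.1.

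The members, the gene lists and the rule for naming (all members, every list gene called) were chosen with earlier results of these data known.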

Additional observations from a re-analysis of the deposited data

Results flagged for a closer look

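For 4 genes of the lists the HOTSCRAMBL effect with KO minus that with CBE passed edgeR's test of the difference, after Benjamini-Hochberg adjustment. The difference was −2.06 for WT1 (SE 0.345, edgeR adjusted p 5.28e-04), −1.08 for IGF2BP3 (SE 0.292, edgeR adjusted p 0.0381), −0.64 for OGT (SE 0.127, edgeR adjusted p 0.0031) and −0.52 for HCFC1 (SE 0.142, edgeR adjusted p 0.0394). WT1 passed in each fit that left out 1 of the 8 libraries (edgeR adjusted p 0.0105 to 0.0344). OGT passed in 4 of those 8 fits (0.0168 to 0.132), and IGF2BP3 (0.108 to 0.306) and HCFC1 (0.104 to 0.288) in 0.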

How the results depend on the processing

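Of 690 comparisons of a member's fold change with its value under an alternative, 590 kept direction and side of the threshold, 50 lost and 23 gained a call, and 27 changed sign. Most of these comparisons are of results that were not called, which had no call to lose. Among called results with KO, the call stayed in 13 of 18 alternatives for EZH2 and 12 of 18 for JARID2. With CBE it stayed in 5 of 18 for SUZ12, 6 of 18 for JARID2 and 12 of 18 for CBX8. For BMI1 between line labels it stayed in 8 of 16. Counting called members, the KO contrast gave 5 without TMM, 4 with the quasi-likelihood fit of earlier edgeR versions (an alternative added after seeing the data), 0 in a fit of its 4 libraries alone and 0 without the replicate block. Of all genes, these KO fits called 10.5%, 10.5%, 2.75% and 7.22%. The CBE contrast gave 0 from its 4 libraries alone and 1 without the block, where 2.19% and 6.82% of all genes were called. The difference between editors gave 2 with DESeq2 on the same genes, where 9.17% of all genes were called. It gave 1 each with DESeq2's own filter, without TMM, without a filter, with limma-voom and with the earlier edgeR fit. Those fits called 3.40%, 3.23%, 2.39%, 3.63% and 4.44% of all genes, beside 3.19% in the main fit. The line labels gave 2 with DESeq2 on the same genes, BMI1 and EZH2, where 2.97% of all genes were called. Leaving out 1 library gave 0 to 2 members with KO, 0 to 1 with CBE and 0 for the line labels.

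Over all genes, DESeq2 on the same genes called 4150 with KO, 3351 with CBE, 2205 for the difference, 35 between controls, 715 between line labels and 68 for the difference between lines. DESeq2 with its own filter called 1196 for the difference, 4 between controls and 307 between line labels. The 4 libraries alone gave 661 with KO and 528 with CBE, and the fit without the replicate block 503 for the difference. Between line labels limma-voom called 265 and the earlier edgeR fit 193. Leaving out 1 library gave 701 to 1679 with KO, 579 to 1935 with CBE, 234 to 370 for the difference and 26 to 58 between line labels.

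Some signs changed. Leaving out a library gave EED values from −0.30 to 0.89 with KO and from −0.50 to 1.13 with CBE. Their values with all libraries were 0.44 and 0.43. In the difference between editors the values over the 8 such fits ran from −0.71 to 0.92 for EED, −1.18 to 1.00 for CBX7, −0.53 to 0.69 for RNF2, −0.032 to 0.65 for CBX8, −0.033 to 0.22 for EZH1, −0.16 to 0.039 for JARID2 and −0.071 to 0.10 for RING1. There EED was −0.017 with DESeq2 on the same genes or with its own filter, −0.0099 without TMM and −0.052 with the earlier edgeR fit, RING1 was −4.56e-04 without TMM, and CBX7 was 0.16 and 0.15 with these DESeq2 fits and 0.11 with the earlier edgeR fit. The cause of these changes was not tested. Where an alternative used fewer libraries or genes, that is part of its construction. With 2 libraries per group, of different labelled lines, every comparison has low precision.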

Other observations

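The genes whose levels followed those of EZH2 and EZH1 most closely over the 8 libraries were named by the Pearson correlation of log2 CPM, among 12018 genes with a level above the median. For EZH2 they were UTRN (r = 0.991), which encodes the dystrophin relative utrophin, RBM5 (r = 0.971), an RNA-binding splicing regulator, and PCNT (r = 0.966), a centrosome scaffold. For EZH1 they were FCHSD1 (r = 0.960), VPS39 (r = 0.954) and CLASP2 (r = 0.951). UTRN stood at 544 and 364 CPM in AAVS1 KO, against 330 and 237 CPM in HOTSCRAMBL KO. With the base editor it stood at 509 and 410 CPM under the AAVS1 guide, against 380 and 343 CPM under the HOTSCRAMBL guide. The libraries share group, line label and scaling, and the closest of many genes were picked, so these values are a description.

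Epithelial markers summed to 3.60 and 4.97 CPM in AAVS1 KO and to 0.134 and 0.306 CPM in HOTSCRAMBL KO, against 2.65 to 3.45 CPM in AAVS1 CBE and 2.60 to 4.57 CPM in HOTSCRAMBL CBE. B cell markers summed to between 6.31 and 11.4 CPM over the 8 libraries, and megakaryocyte markers to at most 4.11 CPM. Their part in the values above was not tested.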
